A study of Mus musculus with 30 samples.

Results

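*Tnf*, *Il6*, *Il10*, *Il12b*, *Il23a*, *Il27*, *Il15*, *Osm* and *Tgfb1* encode cytokines or cytokine subunits that are known to promote or restrain inflammation. They were listed by name as a pro- and anti-inflammatory cytokine panel, with no threshold on a measured value, and are 9 of the 45317 gene symbols in the count table. RNA was sequenced from 8 sorted cell populations of C57BL6.CCR2RFP/WT mice aged 12 to 18 weeks, in which 1 Ccr2 allele had been replaced by RFP in every group, the blood controls included. GL261, a mouse glioma line carrying a palmitoylated and therefore membrane-bound GFP, had been implanted into the striatum of each mouse about a month earlier, so that GFP in a host cell marks tumor membrane it has taken up. Ly6CHigh Blood Monocytes and Ly6CLow Blood Monocytes came from mice 22, 23 and 24 (n = 3 each). Ly6CHigh Brain Monocytes GFPneg and GFPpos, here called glioma monocytes, came from mice 22, 24 and 26 (n = 3 each), and CCR2High and CCR2Low Brain Macrophages, each GFPneg and GFPpos, came from mice 22, 23, 24 and 26 (n = 4 each). The blood cells came from the same tumor-bearing mice, and no mouse without a tumor was sequenced. The tumor brain was dissociated with enzymes before sorting and the blood was not, so that tissue, tumor contact and dissociation cannot be told apart in a comparison of brain with blood.

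TNF signals through a pair of receptors to NF-κB and is a classical alarm signal of activated monocytes and macrophages. IL-6 and oncostatin M (*Osm*) belong to a family that signals through the shared receptor chain gp130 and the transcription factor STAT3. *Il12b* encodes p40, the subunit that IL-12 shares with IL-23, and *Il23a* encodes p19, which joins p40 to form IL-23. *Il27* encodes the p28 subunit of IL-27, whose partner is EBI3, and IL-15 sustains NK cells and memory T cells. IL-10 restrains the production of inflammatory cytokines by myeloid cells, and TGF-β1 is secreted in a latent form that has to be activated outside the cell.

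Between 1553616 and 5689644 reads per replicate were counted on genes, in 28 replicates of which 6 were from blood and 22 from brain. Synthetic spike-in RNA took between 0.284% and 13.3% of the counts, and a pair of replicates stood apart: Ly6CLow blood monocytes of mouse 23 with 13.3% and GFPpos glioma monocytes of mouse 24 with 5.16%. GFPpos glioma monocytes of mouse 22 were the sum of 2 libraries, of which the first held 8.68% spike-in and the second 1.29%. These 2 libraries of 1 sample differed widely for several of the cytokines. *Tgfb1* had 407 counts in the first (242 CPM, here of the gene counts of each library) and 10 in the second (2.49 CPM), and *Tnf* had 46 (27.4 CPM) and 628 (157 CPM). *Il6*, *Il12b* and *Il15* had 0 counts in the first and 46, 97 and 72 in the second, whereas *Osm* was at 406 and 417 CPM. Values of single replicates from these small inputs therefore carry an error that the counts alone do not show.

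Markers of monocytes and macrophages were found in all 8 populations, with none of 8 markers at 0 in any of them. Markers of other cells were present too and differed between the glioma populations and Ly6CHigh blood monocytes, and also between the 2 blood populations. All 6 microglial markers rose in the 3 GFPneg glioma populations over Ly6CHigh blood monocytes, with a summed level of 14.6 to 42.8 CPM in blood, where *Sall1*, *Siglech* and *Sparc* were at 0, and 1349 to 2484 CPM in GFPneg glioma monocytes. All 6 markers of T and NK cells rose as well, from 18.2 to 138 CPM in Ly6CHigh blood monocytes to between 346 and 877 CPM in GFPneg glioma monocytes. In Ly6CLow blood monocytes they summed to 705 to 1027 CPM. Neutrophil markers, whose cells are another known source of oncostatin M, summed to 374 to 1324 CPM in Ly6CHigh blood monocytes and 84.3 to 1238 CPM in GFPneg glioma monocytes. None of the 6 rose in glioma monocytes or CCR2High macrophages, and *Retnlg* rose in CCR2Low macrophages, from 14 to 285 CPM. *Mmp8* fell in all 3 GFPneg glioma populations, from 578 CPM to 107 in glioma monocytes, 14.5 in CCR2High and 24.8 in CCR2Low macrophages. Of 6 dendritic cell markers, whose cells are a known source of p40, 2 rose in glioma monocytes, 3 in CCR2High macrophages and 1 in CCR2Low macrophages, where 2 fell. Their summed level was 100.2 to 219 CPM in Ly6CHigh blood monocytes, 240.3 to 569 CPM in glioma monocytes, 301 to 723 CPM in CCR2High and 195 to 367 CPM in CCR2Low macrophages, and none was at 0 in these populations. In Ly6CLow blood monocytes it was 578 to 1895 CPM. Of 5 B and plasma cell markers 1, 0 and 2 rose, with *Igha* at 0 in Ly6CHigh blood monocytes and 905 ± 788 CPM in glioma monocytes. Of 12 genes known to be induced by enzymatic dissociation, 9 rose in GFPneg glioma monocytes and 7 in each of the GFPneg macrophage populations. Of all tested genes 11.1% rose in glioma monocytes, 12.7% in CCR2High and 14.1% in CCR2Low macrophages. The part of these cells and of dissociation in the cytokine values was not tested. In sorted bulk samples, fewer cells that express a gene and less RNA per cell cannot be told apart.

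All 9 genes were found in the GENCODE vM21 annotation of build GRCm38. *Tnf* lies at chr17:35199381-35202007 on the minus strand, *Il6* at chr5:30013114-30019981 on the plus strand, *Il10* at chr1:131019845-131024974 on the plus strand and *Il12b* at chr11:44400063-44414033 on the plus strand. *Il23a* lies at chr10:128296139-128298752, *Il27* at chr7:126589010-126594941 and *Il15* at chr8:82331632-82403222, all on the minus strand, and *Osm* at chr11:4236420-4241026 and *Tgfb1* at chr7:25687002-25705077 are on the plus strand. The counts are of reads within the exons of these genes. *Il27* overlaps *Apobr* on the opposite strand, and since the strand setting of the counting is not given in the sources used here, reads of the 2 genes may not be separated. No other member overlaps an annotated gene.

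The promoter sequence given by RefSeq (GRCm38.p6) was read for the 4 members that the table holds, since *Tnf*, *Il6* and *Il12b* were called higher in the glioma than in blood and *Tgfb1* was not. The 250 bases before the start of each gene are printed 5′ to 3′ on the strand of the gene, with matches to 4 motifs in capitals. The motifs, searched on both strands, were the κB motif, the TATA box TATAAA, the GC box GGGCGG and the AP-1 motif TGANTCA.
*Tnf*, chr17:35202008-35202257: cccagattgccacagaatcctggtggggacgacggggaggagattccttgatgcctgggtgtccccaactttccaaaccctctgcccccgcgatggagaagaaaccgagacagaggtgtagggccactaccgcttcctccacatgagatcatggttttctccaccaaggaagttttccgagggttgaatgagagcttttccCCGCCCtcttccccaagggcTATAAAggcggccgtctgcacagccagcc
*Il6*, chr5:30012864-30013113: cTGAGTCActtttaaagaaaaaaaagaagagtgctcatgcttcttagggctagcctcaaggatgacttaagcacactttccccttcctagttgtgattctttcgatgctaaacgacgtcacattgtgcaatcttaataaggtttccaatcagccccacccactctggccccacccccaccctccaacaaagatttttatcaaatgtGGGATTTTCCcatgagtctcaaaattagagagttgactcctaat
*Il12b*, chr11:44399813-44400062: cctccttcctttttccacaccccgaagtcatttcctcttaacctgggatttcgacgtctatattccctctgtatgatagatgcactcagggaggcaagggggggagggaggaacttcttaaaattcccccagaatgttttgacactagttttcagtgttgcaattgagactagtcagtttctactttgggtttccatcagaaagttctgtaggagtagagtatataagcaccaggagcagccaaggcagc
*Tgfb1*, chr7:25686752-25687001: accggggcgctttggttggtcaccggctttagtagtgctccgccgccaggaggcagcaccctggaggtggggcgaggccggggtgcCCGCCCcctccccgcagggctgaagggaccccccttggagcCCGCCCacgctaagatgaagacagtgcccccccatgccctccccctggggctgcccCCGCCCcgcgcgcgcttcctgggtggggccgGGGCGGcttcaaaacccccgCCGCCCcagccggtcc

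The *Il6* window held 1 κB match, which begins 44 bases before the start of the gene, and 1 AP-1 match at 249 bases before it. Of the windows of the same length before 32851 gene starts, 3.9% held a κB match and 6.75% an AP-1 match. The *Tnf* window held TATAAA at 29 bases before the start, as did 12.4% of all windows somewhere within them, and 1 GC box. *Tgfb1* held 5 GC boxes, with 32.7% of all windows holding at least 1, and its window was 75.2% G and C with 21 CpG dinucleotides. *Tnf* had 57.6% G and C with 10 CpG, *Il12b* 46% with 3 and *Il6* 42.8% with 3, and the median of all windows was 52.4%. None of the 4 motifs was found in the *Il12b* window, which says only that these letters are not in it.

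*Osm* was the member with the highest level per kb of exon in all 6 glioma populations, and *Tgfb1* was the highest in both blood populations. In GFPneg glioma monocytes *Osm* reached 840 ± 283 CPM per kb (SD, n = 3), *Tnf* 113 ± 52.5 and *Tgfb1* 41.8 ± 27.6. *Il27*, *Il10*, *Il15* and *Il6* followed at 27.3, 17.5, 16.3 and 15.4 CPM per kb, and *Il12b* and *Il23a* were the lowest at 2.72 and 1.95. In Ly6CHigh blood monocytes *Tgfb1* stood at 58.6 ± 6.95 CPM per kb (SD, n = 3), *Il15* at 7.77 ± 2.92, and *Tnf*, *Osm* and *Il27* between 2.8 and 3.67. *Il6*, *Il10*, *Il12b* and *Il23a* had no count in any of the 3 replicates.

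**Figure D1:**
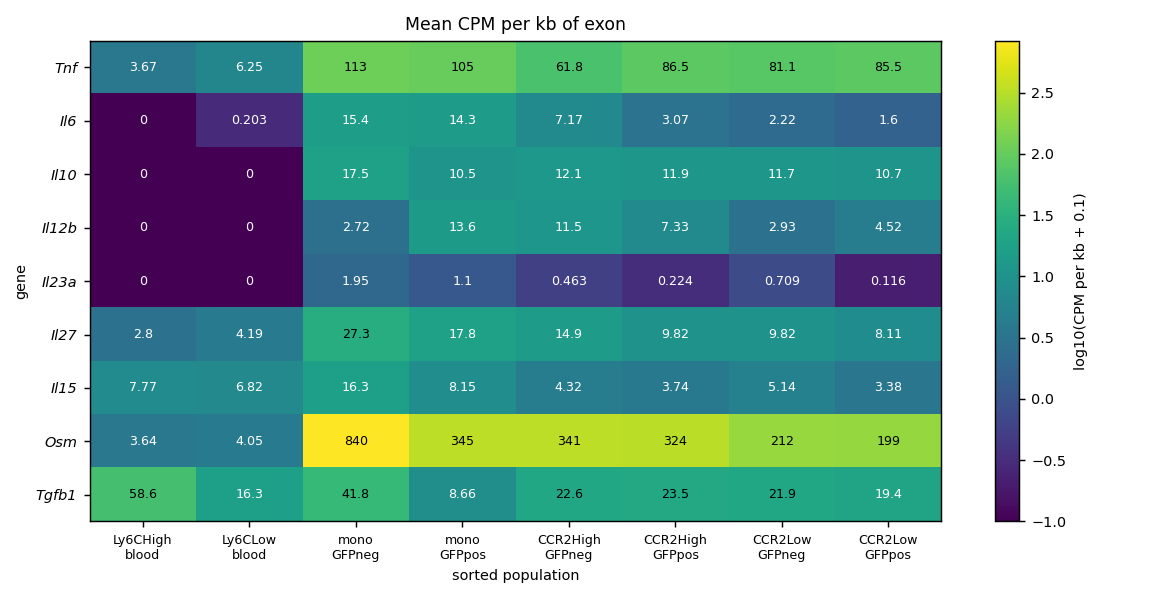
Mean CPM per kb of exon for each of the 9 cytokine genes (rows) in each of the 8 sorted populations (columns), with the mean printed in each cell and the colour on a log10 scale after adding 0.1. *Osm* is the brightest row in the 6 glioma columns, from 199 to 840, and *Tgfb1* in both blood columns, at 58.6 and 16.3.

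The levels below are normalised read counts, in CPM (counts per 1e6 counts of the TMM-scaled library size). *Osm* stood at 6.18, 11.7 and 6.9 CPM in Ly6CHigh blood monocytes of mice 22, 23 and 24, and at 0, 23.1 and 4.44 CPM in the Ly6CLow monocytes of the same mice. In GFPneg glioma monocytes of mice 22, 24 and 26 it was at 1540.1, 2652 and 1533 CPM. In mice 22, 23, 24 and 26 it was at 761, 591, 802 and 948 CPM in GFPneg CCR2High macrophages and at 469, 306, 422 and 728 CPM in GFPneg CCR2Low macrophages. Every glioma replicate lay far above every blood replicate. The GFPneg glioma monocytes lay above both GFPneg macrophage populations without overlap. Of all tested genes, 11.7% did not overlap with CCR2High and 13.8% with CCR2Low macrophages. 

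*Tnf* was at 3.93, 4.69 and 9.41 CPM in Ly6CHigh blood monocytes of mice 22, 23 and 24. In GFPneg glioma monocytes of mice 22, 24 and 26 it was at 87.3, 245 and 225 CPM. In GFPneg CCR2High macrophages of mice 22, 23, 24 and 26 it was at 65, 62.2, 102 and 175 CPM, and in GFPneg CCR2Low macrophages at 56.7, 65.6, 128 and 282 CPM. All brain replicates lay above all blood replicates, and the glioma populations overlapped each other.

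*Il6* had no count in Ly6CHigh blood monocytes and 5 counts in 1 of the 3 Ly6CLow replicates. It was at 14.5, 60.5 and 37.4 CPM in GFPneg glioma monocytes of mice 22, 24 and 26, at 5.05, 3.01, 46 and 15.5 CPM in GFPneg CCR2High macrophages of mice 22, 23, 24 and 26, and at 3.3, 1.89, 7.4 and 8.97 CPM in GFPneg CCR2Low macrophages. The GFPneg CCR2High macrophages overlapped both other GFPneg populations. The GFPneg glioma monocytes did not overlap the GFPneg CCR2Low macrophages, as in 13.8% of tested genes. *Il10* had no count in any of the 6 blood replicates. It was at 6.52, 13.4 and 49 CPM in GFPneg glioma monocytes of mice 22, 24 and 26, at 7.57, 5.82, 2.94 and 46.9 CPM in GFPneg CCR2High macrophages, and at 8.81, 6.37, 10.2 and 35.9 CPM in GFPneg CCR2Low macrophages of mice 22, 23, 24 and 26. In each of these populations mouse 26 was the high sample.

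*Il12b* likewise had no count in blood. In GFPneg CCR2High macrophages of mice 22, 23, 24 and 26 it was at 19.5, 27.5, 37.2 and 6.17 CPM, in GFPneg CCR2Low macrophages at 2.75, 1.42, 0.463 and 18.5 CPM, and in GFPneg glioma monocytes of mice 22, 24 and 26 at 7.02, 3.21 and 5.81 CPM. The populations overlapped, since mouse 26 was lowest of the CCR2High and highest of the CCR2Low macrophages. *Il23a*, the other IL-23 subunit, was hardly detected. It had 76 counts in all, none of them in blood, and reached 9.03 CPM at most, in GFPneg glioma monocytes of mouse 26. It did not pass the filter on low counts and was not tested.

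*Il27* was between 2.25 and 3.97 CPM in Ly6CHigh blood monocytes and at 41.1, 31.6 and 11 CPM in GFPneg glioma monocytes of mice 22, 24 and 26. It ranged from 10.1 to 22.5 CPM in GFPneg CCR2High macrophages and from 7.91 to 13.8 CPM in GFPneg CCR2Low macrophages, all above the Ly6CHigh blood monocytes. *Il15* was present in blood, at 18.5, 10.5 and 23.6 CPM in Ly6CHigh monocytes of mice 22, 23 and 24. It ranged from 18.7 to 67.5 CPM in GFPneg glioma monocytes, from 5.95 to 13.2 CPM in GFPneg CCR2High macrophages and from 4.4 to 20.8 CPM in GFPneg CCR2Low macrophages. Blood overlapped each of them. *Tgfb1* was the member with the highest blood level, at 295, 330.4 and 260.2 CPM in Ly6CHigh monocytes. In GFPneg glioma monocytes of mice 22, 24 and 26 it was at 189, 359 and 83.9 CPM, which spans the blood values, whereas GFPneg CCR2High macrophages (39.3 to 174 CPM) and GFPneg CCR2Low macrophages (28.5 to 153 CPM) lay below them.

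**Figure D2:**
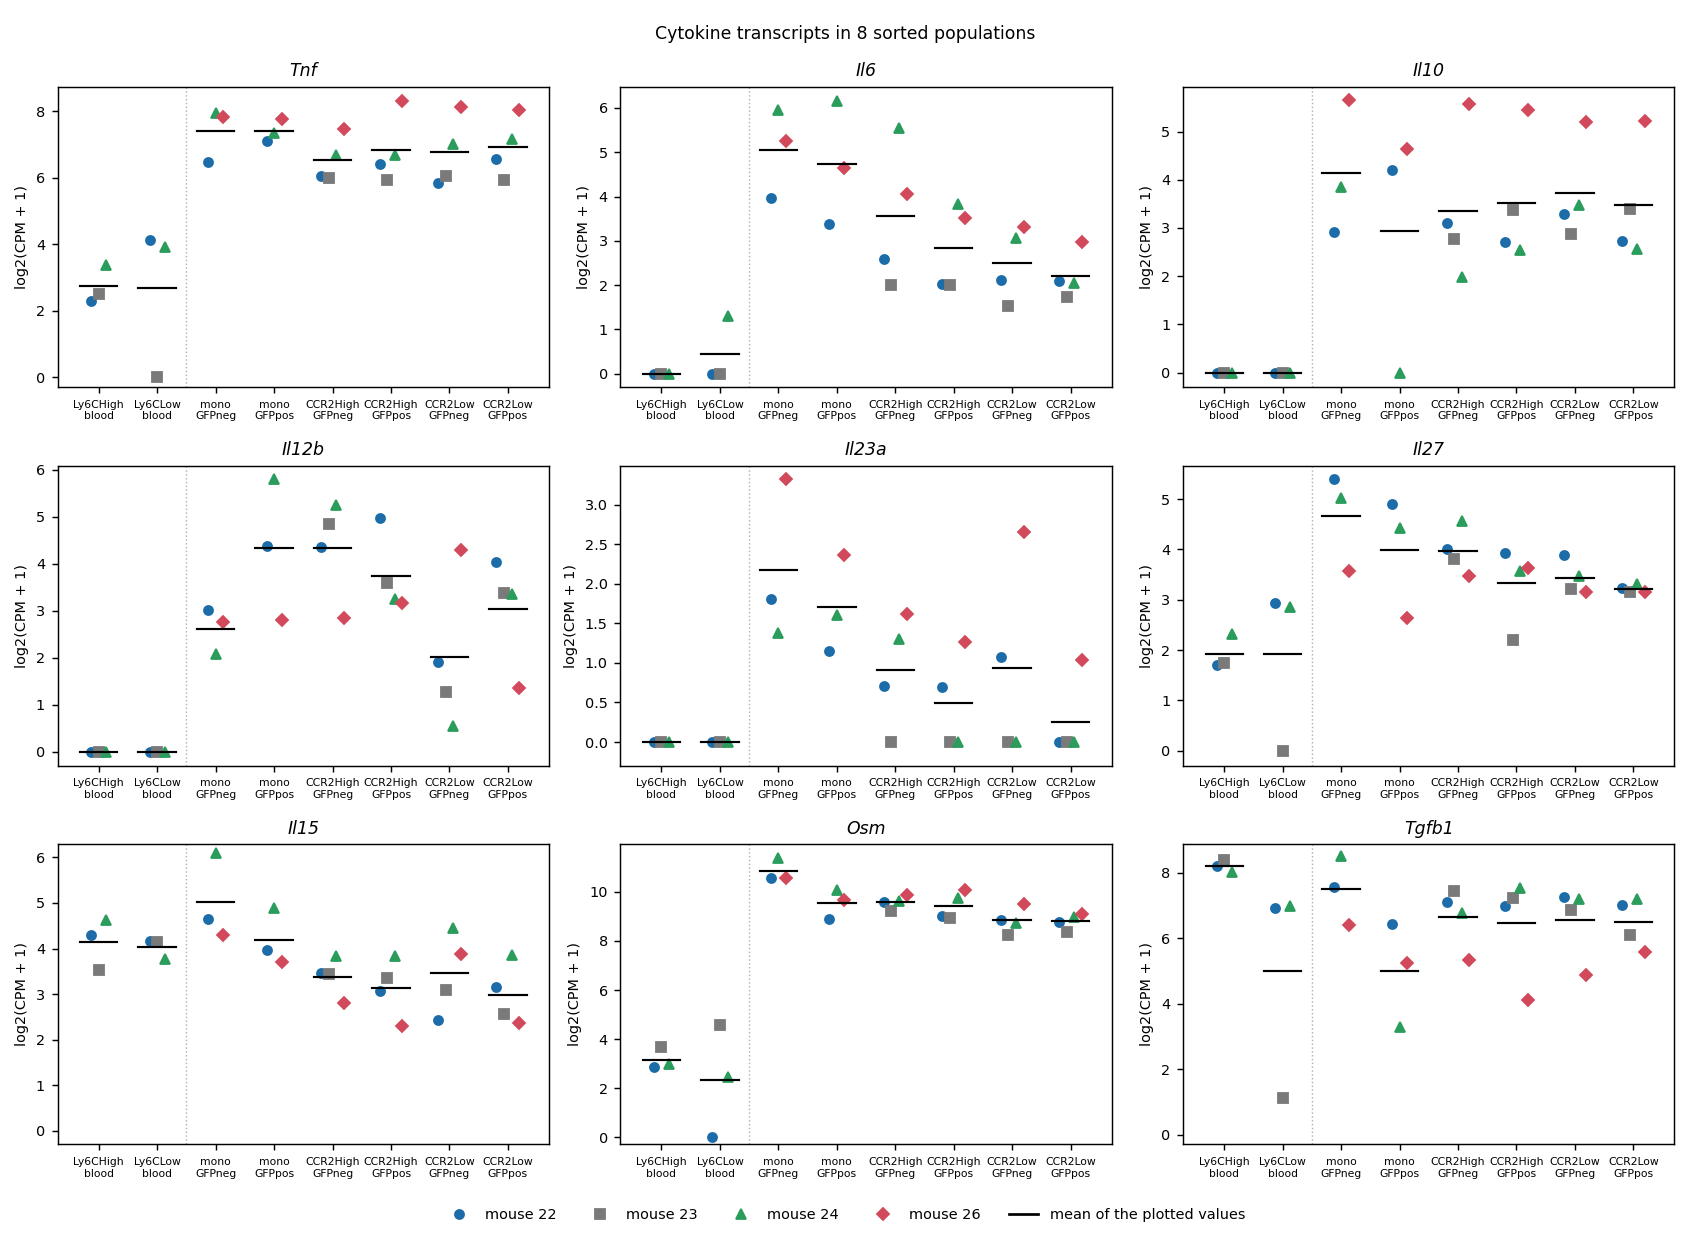
Normalised read counts of the 9 cytokine genes, as log2(CPM + 1), in each replicate of the 8 sorted populations, with a symbol for each mouse and a black bar at the mean of the plotted values. The dotted line separates the 2 blood populations from the 6 glioma populations. *Osm* and *Tnf* lie higher in every glioma replicate than in every blood replicate, *Il10*, *Il12b* and *Il23a* are at 0 in all 6 blood replicates, and mouse 26 is the highest *Il10* sample in each glioma population.

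To examine what differs once Ly6CHigh monocytes are in the tumor, GFPneg glioma monocytes were compared with Ly6CHigh blood monocytes. In the edgeR quasi-likelihood test, adjusted over 11566 genes, 6 of the 8 members tested were called at an adjusted p under 0.05, all of them higher in the glioma, where 13.8% of all genes were called and 11.1% were called higher. Of the 9 members 7 did not overlap between the groups, as did 35.6% of tested genes, and 6 had an unadjusted p under 0.05, as did 24.9%. *Il6*, *Il10*, *Il12b* and *Il27* passed the filter on low counts only through the brain replicates. Their part in this count therefore follows in some measure from the filter. *Osm* rose 231-fold in mean CPM, from 8.26 ± 3.01 to 1908 ± 644 (SD, n = 3 each), with a log2 fold change of 7.87 (SE 0.77, adjusted p = 5.32e-08). *Tnf* rose 30.9-fold, from 6.01 ± 2.97 to 186 ± 86 CPM (log2 fold change 4.87, SE 0.92, adjusted p = 4.68e-04), and *Il27* 9.77-fold, from 2.85 ± 0.969 to 27.9 ± 15.4 CPM (3.23, SE 0.83, adjusted p = 0.00871).

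For members at 0 in Ly6CHigh blood monocytes the fold is given as a lower bound, taken against 3 counts per blood library. This bound covers counting error only. It takes in neither the spread of the glioma replicates nor the differences between libraries. In the 2 libraries of 1 sample above, *Il6*, *Il12b* and *Il15* were at 0 in the first and at 11.5, 24.2 and 18 CPM in the second. *Il6* was at least 27.6-fold higher (adjusted p = 2.84e-04), *Il10* at least 16.9-fold (adjusted p = 0.00573, and at least 7.34-fold without mouse 26) and *Il12b* at least 3.94-fold (adjusted p = 0.0117). *Il15*, at 36.7 ± 26.7 against 17.6 ± 6.59 CPM, was not called (log2 fold change 1.06, SE 0.62, adjusted p = 0.312), and neither was *Tgfb1*, at 211 ± 139 against 295 ± 35.1 CPM (-0.49, SE 0.90, adjusted p = 0.826). *Il27* lost its call without Ly6CHigh blood replicate 22 or 23 and *Il12b* without replicate 24. Scaled to the spike-ins, *Tnf* (adjusted p = 0.0745) and *Il27* (adjusted p = 0.347) were no longer called, with the same direction.

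GFPneg CCR2High macrophages were compared with the same 3 blood replicates. Again 6 of 8 members were called, all higher, where 17.8% of all genes were called and 12.7% were called higher. Here too *Il6*, *Il10*, *Il12b* and *Il27* entered the test only through the brain replicates. An unadjusted p under 0.05 was reached by 6 members and 29.5% of genes, and 35.7% of genes did not overlap. *Osm* stood 93.8-fold above blood in mean CPM, at 775 ± 147 (SD, n = 4; log2 fold change 6.57, SE 0.72, adjusted p = 2.73e-07), and *Tnf* 16.8-fold, at 101 ± 52.7 CPM (3.99, SE 0.87, adjusted p = 0.00152). The p40 subunit gene *Il12b* was at least 16.7-fold higher (22.6 ± 13.1 CPM, adjusted p = 7.14e-04), *Il6* at least 12.8-fold (adjusted p = 6.81e-04) and *Il10* at least 11.6-fold (adjusted p = 0.00634). One replicate set much of the last 2 bounds, which were 5.8-fold for *Il6* without mouse 24 and 4.01-fold for *Il10* without mouse 26. *Il27* was 5.32-fold higher (adjusted p = 0.0366), a call that was lost without any 1 of the 3 blood replicates, without CCR2High macrophages of mouse 22, 23 or 24, with spike-in scaling (adjusted p = 0.447) and with no count filter (adjusted p = 0.0834). *Tgfb1*, at 114 ± 56.8 CPM, lay below every blood replicate, and the difference was not called (-1.37, SE 0.83, adjusted p = 0.289).

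In GFPneg CCR2Low macrophages 5 of 8 members were called against these blood replicates, all higher, where 20.2% of all genes were called and 14.1% were called higher. The same limit of the filter holds for *Il6*, *Il10*, *Il12b* and *Il27*. An unadjusted p under 0.05 was reached by 6 members and 31.1% of genes, and 35.3% of genes did not overlap. *Osm* was 58.2-fold higher, at 481 ± 178 CPM (SD, n = 4; log2 fold change 5.88, SE 0.70, adjusted p = 8.47e-07), and *Tnf* 22.1-fold, at 133 ± 104 CPM (4.38, SE 0.88, adjusted p = 6.31e-04). *Il10* was at least 11.3-fold higher (adjusted p = 0.00624), *Il12b* at least 4.26-fold (adjusted p = 0.00647) and *Il6* at least 3.97-fold (adjusted p = 0.00542). Without mouse 26 the bound fell to 6.23-fold for *Il10* and 1.14-fold for *Il12b*, and the fold of *Tnf* to 13.9, with all 3 still called. *Il27*, at 10 ± 2.68 CPM, was above every blood replicate and was not called (1.75, SE 0.77, adjusted p = 0.116). *Tgfb1*, at 110.3 ± 57 CPM, lay below every blood replicate here too and was not called (-1.42, SE 0.83, adjusted p = 0.259), and *Il15* overlapped blood (-0.61, SE 0.57, adjusted p = 0.534). The 3 comparisons share their blood replicates and are not independent of each other. Without mouse 26, which gave no blood, the counts were 6, 6 and 5, and without the replicates over 5% spike-in they were 6, 6 and 6. *Tnf* was not called in either macrophage population when scaled to the spike-ins (adjusted p = 0.113 and 0.0821).

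**Figure D3:**
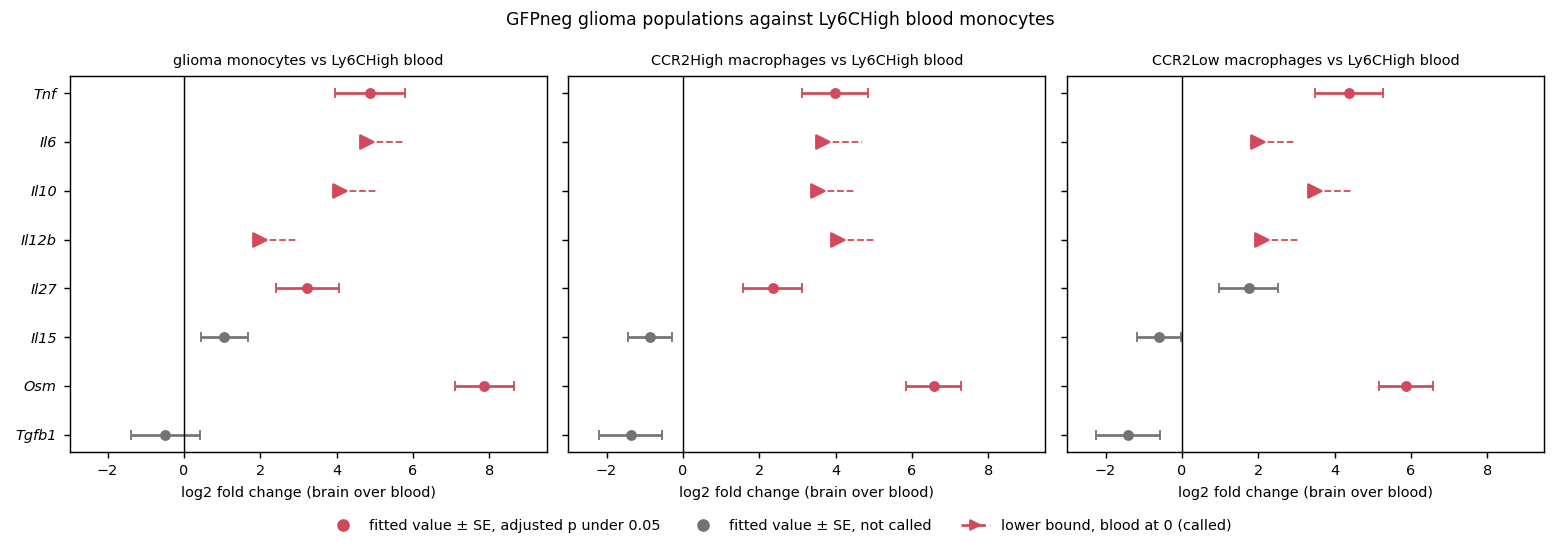
Log2 fold changes of the 8 tested cytokine genes in 3 GFPneg glioma populations over Ly6CHigh blood monocytes. Circles are fitted values with standard errors computed from the F statistic of the test, red where the adjusted p is under 0.05 and grey otherwise. Triangles are lower bounds for genes with no count in Ly6CHigh blood monocytes, each computed against 3 counts per blood library and covering counting error only. *Osm* lies farthest to the right in all 3 panels, at 7.87, 6.57 and 5.88, and *Tgfb1* lies left of 0 at -0.49, -1.37 and -1.42 without being called.

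Within blood, the Ly6CHigh and Ly6CLow subsets were compared. By edgeR 0 of the 8 tested members were called, where 5.61% of all genes were, and DESeq2 called 0 members as well. *Il10* and *Il12b* had no count in either subset and could not have been called, and *Il6* had 5 counts in 1 Ly6CLow replicate. These genes and *Il27* passed the filter on low counts only through the brain replicates, so that the count of 0 says little about them. No member reached an unadjusted p under 0.05, as 21.8% of genes did, and 17.8% of genes did not overlap. The lowest belonged to *Tgfb1*, which was 3.6-fold higher in mean CPM in Ly6CHigh monocytes, at 295 ± 35.1 against 82 ± 70 (SD, n = 3 each; log2 fold change 1.85, SE 0.92, adjusted p = 0.242). The Ly6CLow replicates of *Tgfb1* were at 121, 1.16 and 124 CPM, all below the Ly6CHigh replicates, and the low one of them, mouse 23, is the replicate with 13.3% spike-in. *Osm*, *Tnf*, *Il27* and *Il15* overlapped between the subsets, and *Tnf* and *Il27* had no count in that same replicate. For *Osm* the overlap came from that replicate alone, since the other Ly6CLow replicates lay below all Ly6CHigh replicates. Without it the log2 fold change of *Osm* went from -0.19 to 1.69 and was not called (edgeR, adjusted p = 0.163). Markers of other cells differed between the subsets. In Ly6CHigh monocytes 6 of 6 T and NK cell markers and 1 of 6 dendritic cell markers were called lower. There 1 of 6 neutrophil markers and 1 of 6 microglial markers were called higher. The part of these cells in the cytokine values was not tested.

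The glioma populations were then compared with each other. Between GFPneg CCR2High macrophages and GFPneg glioma monocytes 0 of 8 members were called, where 0.182% of all genes were, and 2 members, *Osm* and *Il15*, had an unadjusted p under 0.05, as did 5.38% of genes. *Osm* was 2.46-fold lower in the macrophages (775 against 1908 CPM, log2 fold change -1.30, SE 0.52, adjusted p = 0.679) and *Il15* 3.76-fold lower (9.77 against 36.7 CPM, -1.92, SE 0.58, adjusted p = 0.263). In both genes the replicates did not overlap, as in 11.7% of all genes. When only these 2 populations entered the fit, *Osm* was called (adjusted p = 0.0472).

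Between GFPneg CCR2Low macrophages and GFPneg glioma monocytes 0 of 8 members were called as well, where 1.21% of all genes were, and 4 had an unadjusted p under 0.05, as did 8.46% of genes. *Osm* was 3.96-fold lower in the macrophages (481 against 1908 CPM, log2 fold change -1.99, SE 0.53, adjusted p = 0.0617) and *Il6* 6.96-fold lower (5.39 against 37.5 CPM, -2.81, SE 0.93, adjusted p = 0.205), both without overlap, as in 13.8% of all genes. With the mouse as a block, which pairs populations of the same animal, both were called: *Osm* at -2.01 (SE 0.49, adjusted p = 0.0252) and *Il6* at -2.38 (SE 0.59, adjusted p = 0.03). DESeq2 called *Osm* (adjusted p = 0.0117) and not *Il6* (adjusted p = 0.0708). *Il15* (-1.66, SE 0.57, adjusted p = 0.232) and *Il27* (-1.48, SE 0.70, adjusted p = 0.555) were the other members under an unadjusted p of 0.05.

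CCR2Low and CCR2High macrophages, both GFPneg, did not differ in any of the 11566 genes by edgeR at the threshold, and 2.39% of genes had an unadjusted p under 0.05 and 3.13% did not overlap. DESeq2 called 8 genes and none of the members. *Il12b* had the lowest unadjusted p of the members, with 22.6 ± 13.1 CPM in CCR2High and 5.77 ± 8.51 CPM in CCR2Low macrophages (SD, n = 4 each; log2 fold change -1.99, SE 0.91, adjusted p = 1). *Tnf* and *Il10* were close in mean CPM, at 133 against 101 and 15.3 against 15.8 (log2 fold changes 0.39 and -0.07, SE 0.66 and 1.03).

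To ask whether uptake of tumor membrane goes with a change in the cytokines, GFPpos cells were compared with GFPneg cells of the same population. By edgeR no gene was called in glioma monocytes, CCR2High macrophages or CCR2Low macrophages, and 6.39%, 0.597% and 1.59% of genes had an unadjusted p under 0.05, while 13.6%, 1.62% and 2.91% did not overlap. Of the members, *Osm*, *Tgfb1* and *Il12b* had an unadjusted p under 0.05 in glioma monocytes and none did in the macrophages. DESeq2 called 20, 1 and 5 genes, with 0 members among them, and gave *Il12b* no adjusted p in glioma monocytes. GFPpos and GFPneg cells came from the same mice, and these tests did not pair them by mouse. With the mouse as a block in edgeR, no member was called either. *Osm* was at 480, 1068 and 806 CPM in GFPpos glioma monocytes of mice 22, 24 and 26, below all GFPneg replicates. The difference in *Osm* was not called (784 ± 295 against 1908 ± 644 CPM, log2 fold change -1.28, SE 0.57, adjusted p = 0.739). *Tgfb1* was at 85, 8.85 and 37.2 CPM in the GFPpos glioma monocytes, against 211 ± 139 CPM in the GFPneg ones (-2.24, SE 0.94, adjusted p = 0.721). *Il12b* was at 19.8, 54.5 and 6.01 CPM, against 5.35 ± 1.95 CPM (2.30, SE 1.06, adjusted p = 0.759). Both genes are among those for which the 2 libraries of mouse 22 disagreed, and the replicate of mouse 24 is the one with 5.16% spike-in. Scaled to the spike-ins, which shifted the median of all genes by -1.44 on the log2 scale in this comparison, *Il12b* turned to -0.34 and *Tgfb1* and *Osm* went to -3.50 and -2.55, none of them called.

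In the macrophages the GFPpos and GFPneg levels of *Osm* were 736 and 775 CPM (CCR2High) and 452 and 481 CPM (CCR2Low), and those of *Tnf* 142 and 101 CPM and 140.1 and 133 CPM. The members' log2 differences with GFP ran from -1.22 (*Il6*) to 0.49 (*Tnf*) in CCR2High macrophages and from -0.59 (*Il15*) to 0.65 (*Il12b*) in CCR2Low macrophages, each with an adjusted p of 1. A test of whether the GFP difference itself varied among the 3 populations called 0 genes by edgeR and 3 by DESeq2, none of them a member, with 1.67% of genes at an unadjusted p under 0.05 in edgeR. All 8 members had an adjusted p of 1 in it.

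The glioma replicates differed by mouse. A test of mouse across the 6 glioma populations, with population as a factor, was added after the values were seen. It called 6 of the 8 members, where 19.6% of 11283 genes were called: *Tnf* (F = 32.8, adjusted p = 1.15e-05), *Il6* (F = 16.4, adjusted p = 4.49e-04), *Il10* (F = 15.2, adjusted p = 6.44e-04), *Osm* (F = 9.7, adjusted p = 0.00502), *Il15* (F = 7.73, adjusted p = 0.0121) and *Tgfb1* (F = 6.66, adjusted p = 0.025). *Il27* (adjusted p = 0.0941) and *Il12b* (adjusted p = 0.876) were not called. Without mouse 26 the calls of *Il10*, *Il15* and *Tgfb1* were lost and those of *Tnf* (adjusted p = 0.0135), *Il6* (adjusted p = 0.0102) and *Osm* (adjusted p = 0.0312) were not. The call of *Tgfb1* was also lost without the libraries over 5% spike-in (adjusted p = 0.117).

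Mouse 26 was highest for *Il10* in 6 of 6 glioma populations, as it was for 4.64% of genes, with 39 ± 9.13 CPM (SD over its 6 populations) against 7.42 ± 4.09 CPM over the 16 replicates of the other mice, and no overlap. *Il23a* was also highest in mouse 26 in 6 of 6, at 3.82 against 0.7 CPM. *Tnf* was highest in mouse 26 in 5 of 6 populations, at 247 ± 51.5 against 104 ± 50.4 CPM. *Tgfb1* went the other way, being lowest in mouse 26 in 5 of 6 populations, at 42 ± 23 against 142 ± 73.6 CPM. Of all genes 2.69% were lowest in mouse 26 in all 6 populations, a stricter rule. The shares of genes highest or lowest there in 5 of 6 were not computed. *Il6* did not follow mouse 26: it was highest there in 2 of 6 populations, and mouse 24 held the highest value in the others (70.8 CPM at most).

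Other measures moved with mouse 26 too. The summed level of the 6 T and NK cell markers was lowest in mouse 26 in 6 of 6 populations (222 to 711 CPM, against 356 to 1445 CPM in the other mice), and its spike-in share was lowest in 5 of 6. The summed level of B and plasma cell markers was lowest there in 5 of 6, and that of monocyte and macrophage markers highest in 5 of 6. The summed level of the genes for release and activation of cytokines was highest in 6 of 6. That of the partner subunits and relatives was lowest in 6 of 6. A sum can follow a few abundant genes: the test of mouse called 3 of 9 release genes (*Furin*, *Thbs1* and *Ltbp1*) and 5 of 6 partner subunits and relatives. The summed level of 12 dissociation-induced genes was highest there in 1 of 6 and lowest in 1 of 6. In the test of mouse, 7 of 12 dissociation-induced genes, 6 of 6 neutrophil markers, 4 of 6 microglial markers and 4 of 6 T and NK cell markers were called. The share over all genes was 19.6%. Their part in the cytokine values was not tested. Scaled to the spike-ins, *Tgfb1* (adjusted p = 0.824) and *Il15* (adjusted p = 0.428) no longer varied with mouse past the threshold, whereas *Tnf*, *Il6*, *Il10* and *Osm* did. The study used male and female mice, and the sample labels used here do not give the sex of each. The cells of 1 mouse share an animal, its sex and a tumor, and these cannot be told apart.

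**Figure D4:**
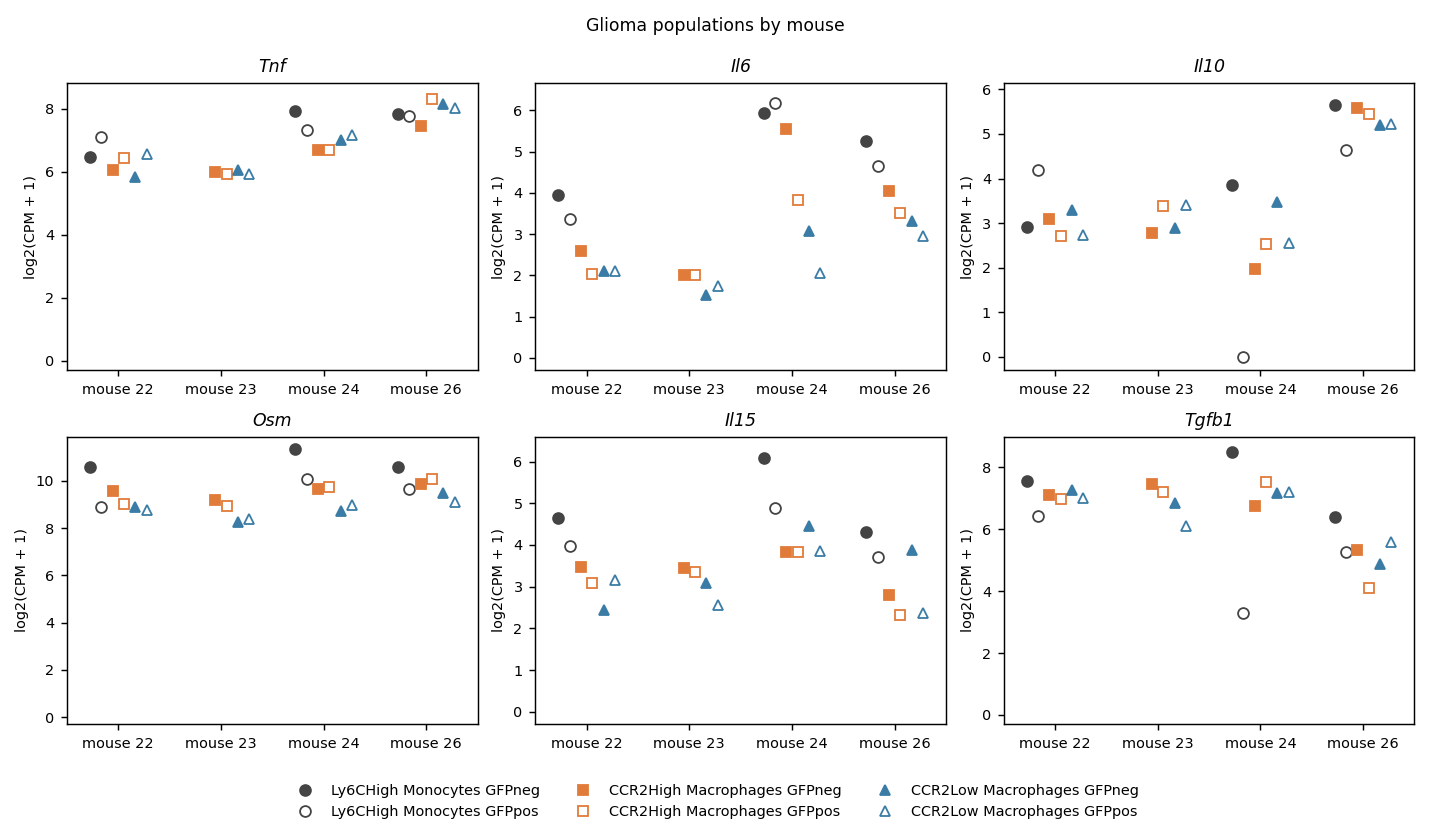
Normalised read counts, as log2(CPM + 1), of 6 cytokine genes in the glioma populations, grouped by mouse. Each point is 1 replicate, with its shape and colour giving the population and filled symbols for GFPneg, open symbols for GFPpos cells. Mouse 23 has macrophages only. The *Il10* points of mouse 26 (24 to 49 CPM) lie above all those of the other mice (0 to 17.3 CPM), and its *Tgfb1* points lie low (16.3 to 83.9 CPM).

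Receptors of the 9 cytokines were measured in the same cells. Of 18 receptor genes, 17 were tested, and the *Il23r* gene was at 0 in 7 of the 8 populations. In GFPneg glioma monocytes 3 rose and 1 fell against Ly6CHigh blood monocytes, in CCR2High macrophages 4 rose and 4 fell, and in CCR2Low macrophages 3 rose and 5 fell. Of all tested genes 11.1%, 12.7% and 14.1% were called higher, and 13.8%, 17.8% and 20.2% were called in either direction. The median log2 fold changes of the 17 were 0.19, 0.70 and 0.25, beside 0.12, 0.15 and 0.17 over all genes. *Il12rb1*, the receptor chain that binds p40, rose from 1.61 to 52.6, 69.8 and 56.8 CPM in the 3 glioma populations. *Il2rb*, a chain of the IL-15 receptor, rose from 19.5 to 238, 263 and 295 CPM, and *Il27ra* from 4.15 to 32.5, 25.3 and 40.7 CPM. These chains are also known from T and NK cells, whose markers rose in the same comparisons.

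*Lifr*, the receptor chain of the related cytokine LIF, fell from 71.3 to 14, 15.8 and 16.8 CPM in the 3 glioma populations. In the macrophages *Tnfrsf1b*, which encodes the TNF receptor 2, fell from 2024 to 437 and 386 CPM (log2 fold changes -2.21 and -2.39). *Il6ra*, the IL-6 receptor, fell from 109 to 27.2 and 24.1 CPM there, and *Tnfrsf1a*, named here after its values were seen, from 574 to 261 and 223 CPM. *Osmr*, the specific receptor of oncostatin M, had no count in either blood population and was not called (adjusted p = 0.135, 0.109 and 0.0808 in glioma monocytes, CCR2High and CCR2Low macrophages).

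Of 12 partner subunits and close relatives of the cytokines, 6 passed the filter. *Ebi3*, the partner of p28 in IL-27, was at 66.9 ± 10.8 CPM in Ly6CHigh blood monocytes (SD, n = 3) and 55.3 ± 19.6 CPM in GFPneg glioma monocytes, and was not called (log2 fold change -0.27, SE 0.34, adjusted p = 0.712). *Lta*, a relative of *Tnf*, rose in all 3 glioma populations, from 0.53 to 7.94, 13.6 and 33.1 CPM, and *Ltb* and *Tgfb3* were called in CCR2Low macrophages and not in the other glioma populations, a difference that was not tested. *Lta* and *Ltb* are known from lymphocytes. *Il12a*, which joins p40 to form IL-12, had no count in blood.

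Of 10 genes for release and activation of cytokines, 9 were tested. In glioma monocytes 4 rose and 0 fell, and in each macrophage population 2 rose and 1 fell. Of all tested genes 11.1% were called higher in glioma monocytes, 12.7% in CCR2High and 14.1% in CCR2Low macrophages. *Lrrc32*, which holds latent TGF-β at the cell surface, had no count in Ly6CHigh blood monocytes and was detected in Ly6CLow blood monocytes. Against the Ly6CHigh blood monocytes it was at least 4.29-fold, 5.6-fold and 3.99-fold higher in glioma monocytes, CCR2High and CCR2Low macrophages. *Nrros*, a related anchor of latent TGF-β in myeloid cells, fell in the macrophages from 1122 to 549 and 462 CPM. *Furin*, a protease that cleaves the TGF-β precursor, rose in glioma monocytes from 25.3 to 139 CPM, and *Thbs1*, an activator of latent TGF-β, from 33.6 ± 5.58 to 2694 ± 3911 CPM (adjusted p = 0.0486), with an SD above its mean.

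All 18 genes for signalling and feedback were tested. Against blood, 8 rose in glioma monocytes and 6 in each macrophage population, and 0 fell in any of the 3. Called higher among all tested genes were 11.1%, 12.7% and 14.1%. The median log2 fold changes were 1.8, 1.33 and 1.08, beside 0.12, 0.15 and 0.17 over all genes. *Nfkbiz* and *Tnfaip3*, targets of NF-κB of which the second encodes its inhibitor A20, rose from 16.1 to 556, 247 and 215 CPM and from 32.1 to 683, 301 and 288 CPM. *Socs3*, the feedback inhibitor of gp130 and STAT3 signalling, rose from 119 to 1227, 809 and 633 CPM. *Zfp36*, whose product destabilises *Tnf* mRNA, rose from 593 to 4912, 2921 and 2215 CPM, and it was lower in CCR2Low macrophages than in glioma monocytes (log2 fold change -1.15, SE 0.28, adjusted p = 0.0406). Several of these genes are immediate-early genes and are also known to respond to tissue dissociation, and the 9 dissociation-induced genes that rose in glioma monocytes included *Fos*, from 446 to 5155 CPM.

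**Figure D5:**
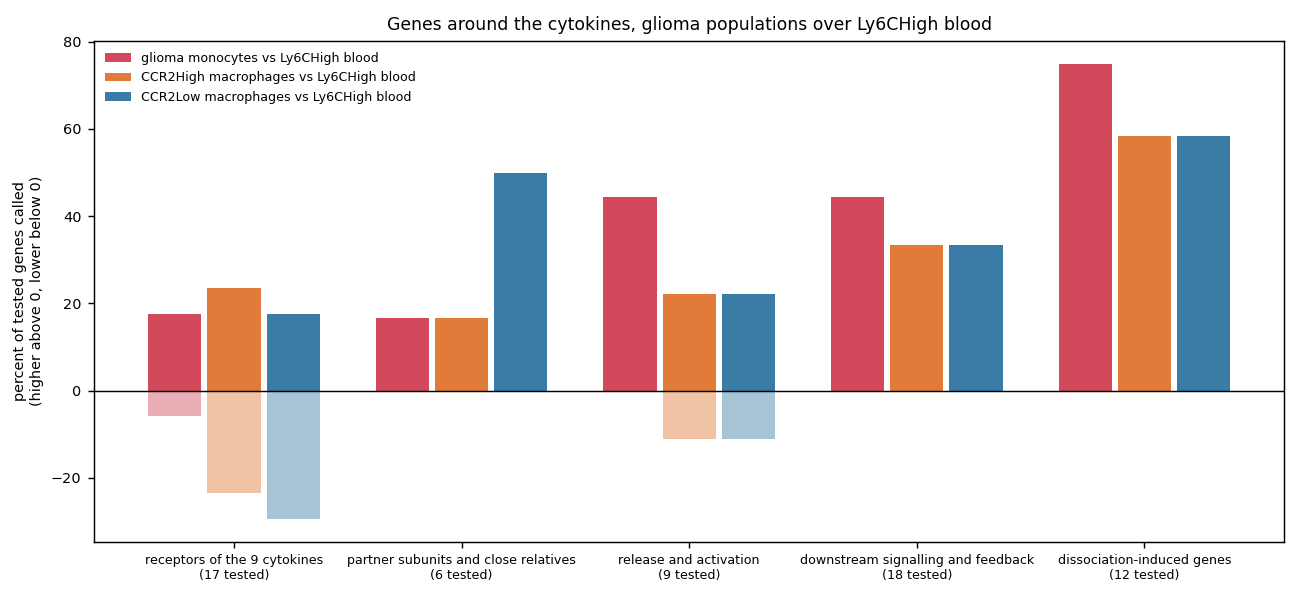
Percent of the tested genes in 5 lists that were called higher (solid bars above 0) or lower (pale bars below 0) by edgeR in 3 GFPneg glioma populations over Ly6CHigh blood monocytes. Receptors were called in both directions, 3, 4 and 3 higher and 1, 4 and 5 lower of 17, whereas signalling and feedback genes and dissociation-induced genes were called higher only, 8, 6 and 6 of 18 and 9, 7 and 7 of 12. Of all tested genes 11.1%, 12.7% and 14.1% were called higher.

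For each tested member the genes with the most similar pattern were taken, by Pearson's r of log2 CPM over the 28 replicates, which share mice across populations. *Osm* was closest to *Fos* (r = 0.972), *Zfp36* (0.967) and *Cd300lf* (0.963), and *Tnf* to *Rasgef1b* (0.976), *Egr2* (0.957) and *Hilpda* (0.945). *Il10* was closest to *Cxcl1* (0.914), *Il6* to *Cdkn1a* (0.884), *Il27* to *Phf11a* (0.888) and *Il12b* to *Bcl2l14* (0.869) and the chemokine gene *Ccl22* (0.862). *Tgfb1* was closest to *Csf2ra* (0.923), a chain of the GM-CSF receptor, and *Ifnar2* (0.92), and *Il15* to *Samhd1*, with the lowest best match of the 8 (0.798). These values are given as a description over replicates that fall into blood and glioma groups.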

How the data were processed

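RNA-seq libraries (SMARTer Ultra Low and Nextera XT, 75-bp paired reads) were made from 8 sorted populations. According to the study's methods, the authors aligned the reads to the mouse genome with STAR, removed duplicates with Picard 1.8.4 and counted reads per gene with htseq-count on the Gencode GRCm38.p3 annotation. The deposited values are raw counts, with synthetic spike-ins. Unassigned rows were left out of library sizes: reads in no feature were 6.28% to 17.4% and ambiguous reads 1.58% to 1.9%. One of 30 libraries (Ly6CLow mouse 23, first library) failed the study's limit of 6000 genes with at least 5 reads and was not used, and 2 libraries of 1 sample were summed, giving 28 replicates. The limit of 3 counts covers counting error only. The SDs are between replicates. Each SE was computed from the edgeR test, as the absolute log2 fold change divided by the square root of the F statistic. It therefore takes in the estimated spread between replicates.

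Counts were scaled by TMM, filtered with filterByExpr and fitted over all 8 populations with the quasi-likelihood test of edgeR 4.0.16 (limma 3.58.1, R 4.3.3). P-values were adjusted by Benjamini-Hochberg over 11566 genes, and a gene was called at an adjusted p under 0.05. All p-values in the text are from edgeR unless DESeq2 (1.42.0) is named. Scripts were tested on simulated data. Tables were made with Python 3.11.15 and pandas 2.3.3. Equal mouse numbers in the titles were read as the same animal, since the study used 4 animals. Residuals of same-mouse replicates correlated at 0.0758 to 0.674 between glioma populations, 0.0869 to 0.255 between blood populations and -0.0826 to 0.0658 between blood and glioma.

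The members and gene lists were chosen with earlier results of these data known. All members are named. Of each list, at most 5 called genes with the largest fold per comparison are named, and for each tested member the 3 most similar genes by Pearson's r were taken, not all of which are printed. The test of mouse and the settings without mouse 26 and without libraries over 5% spike-in, and the folds without 1 replicate, were chosen after seeing the data. Alternatives were other scalings, no count filter, only the compared populations, a mouse block, DESeq2 and leaving out each replicate.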

Additional observations from a re-analysis of the deposited data

Results flagged for a closer look

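In 8 of the 36 groups of 4 replicates tested, 1 replicate lay farther from the others than Dixon's 95% limit allows, where chance gives about 1 in 20. Mouse 26 was the distant replicate in 7 of the 8. *Il10* was at 46.9 and 42.4 CPM in its GFPneg and GFPpos CCR2High macrophages, and at 35.9 and 36.1 CPM in its GFPneg and GFPpos CCR2Low macrophages, each above all other mice. *Tnf* was at 319 CPM in its GFPpos CCR2High macrophages, *Il12b* at 18.5 CPM in its GFPneg CCR2Low macrophages, and *Il23a* at 1.05 CPM in its GFPpos CCR2Low macrophages, where the other mice had no count. That *Il23a* value rests on 2 counts, and beside zeros in all other mice any count would have been flagged. In the remaining group, GFPpos CCR2High macrophages, *Il12b* of mouse 22 was at 30.3 CPM.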

How the results depend on the processing

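Of 245 alternative values of log2 fold changes that were called, 0 turned their direction, and of 963 values of those not called 67 did, *Il12b* with GFP in glioma monocytes among them. With the mouse as a replicate block, the members called between CCR2Low macrophages and glioma monocytes went from 0 to 2 (*Il6* and *Osm*), and the block changed no other member's call. Fitted on the 2 populations of a comparison alone, 2 were called there and 1 (*Osm*) between CCR2High macrophages and glioma monocytes, and *Tgfb1* was called lower than blood in CCR2High (adjusted p = 0.0224) and CCR2Low macrophages (adjusted p = 0.0301). Without libraries over 5% spike-in 1 member (*Osm*) was called between CCR2Low macrophages and glioma monocytes, and DESeq2 called 1. Members called against blood stayed between 5 and 6 when 1 replicate was left out (glioma monocytes and CCR2High macrophages) and were 4, 4 and 4 with spike-in scaling. *Il27* in CCR2Low macrophages was called by DESeq2 (adjusted p = 0.0358). The test of mouse called 3 members without mouse 26. Counts over all genes moved more: against blood, 1596, 2060 and 2340 genes became 398, 523 and 591 with spike-in scaling (higher calls 80.6%, 71.2% and 69.9% became 98%, 89.3% and 85.3%), 1061 in glioma monocytes without mouse 26, and at the lowest 1018, 1307 and 1541 without 1 replicate. Between blood subsets 649 genes became 36 (spike-in; higher calls 35% became 97.2%, all genes shifted by 1.67 on the log2 scale), 397 (no filter), 0 (only compared), 1375 (DESeq2) and 224 to 2444 (leave-one-out). CCR2High macrophages against glioma monocytes went from 21 to 0 (spike-in), 96 (block), 101 (only compared), 64 (without over 5% spike-in), 9 (without mouse 26), 93 (DESeq2) and 6 to 21 (leave-one-out), and CCR2Low macrophages from 140 to 1, 284, 293, 265, 274 (DESeq2) and 47 to 110. Genes called between the macrophages went from 0 to 3 (block), 1 (without over 5% spike-in) and 8 (DESeq2), and with GFP in CCR2Low macrophages to 1 and 5. The cause was not tested.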
